A study of Schmidtea mediterranea with 6 samples.

Results

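Zone 4 of the planarian Schmidtea mediterranea is the piece of the body that lies between the anterior and the posterior extent of the pharynx. Every transcript of the deposited table was taken, 24578 of 24578, and was described by its score in zone 4 against zones 1, 2, 3, 5 and 6. Adult wild-type worms of the asexual, clonal CIW4 strain were starved for 1 week and otherwise untreated. They were cut across the anterior–posterior (A–P) axis into 6 zones. Zone 4 was set against zone 1 (head tip to the back of the photoreceptors), zone 2 (to the back of the brain), zone 3 (to the front of the pharynx), zone 5 (from the back of the pharynx to the middle of the tail) and zone 6 (the remaining tail tip). The sources differ on the number of animals: 5 by the sample labels, 10 by the series design and repeated collections of 5 by the study's methods. The collections of a zone were pooled, and 1 library per zone was sequenced to a stated minimum of 52000000 reads.

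The pharynx of planarians is a muscular feeding tube that is pushed out through a ventral body opening and leads into the branched gut. It carries its own epithelium, muscle, neurons and gland cells, and planarians use a FoxA homolog to specify it. A cross-cut piece at this level holds the body wall, nerve cords, gut branches and mesenchyme beside the pharynx. The study asked, among other questions, whether the pharynx and its opening have the character of a mouth or of a hindgut. Identifiers of pharynx markers such as FoxA, orthopedia and laminin were not given in the sources used here, so the content of the zone 4 piece was not checked against its markers.

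The deposited score is −log10 of an unadjusted p-value from an edgeR exact test of a zone against the other 5. A positive sign means that a transcript had more signal in that zone than in the rest, a negative sign that it had less, so that scores of 2 and −2 both stand for an exact-test p of 0.01. The score is neither a level nor a fold change: it also depends on the abundance of the transcript and on the dispersion used, which is not given in the sources used here. If the 5 other zones stood in as replicates of one another, the variation among them enters each p-value, which was not tested. With 1 library per zone there is no replicate spread, and each p-value compares these 6 libraries rather than animals. In bulk tissue, more cells of a type and more RNA per cell cannot be told apart. Since the zone 4 library also serves in the 5 other comparisons, the 6 scores of a transcript are not independent. For this reason the zones are given side by side, each by its own values.

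Zone 4 had fewer higher transcripts than the head zones 1 and 2, but held the highest score of the series and most of the scores above 20. At p under 0.05 without adjustment, 590 transcripts were higher in zone 4, which was 2.40% of those tested, and 1231 were lower, which was 5.01%. The higher list in zone 4 was smaller than that of zone 1 (4017 transcripts, 16.3%) and zone 2 (1157, 4.71%). It was larger than that of zone 3 (425, 1.73%), zone 6 (225, 0.915%) and zone 5 (80, 0.325%). After Benjamini-Hochberg adjustment within the zone 4 comparison, 423 higher transcripts (1.72%) and 631 lower transcripts (2.57%) passed. Higher calls therefore passed the adjustment in 71.7% of cases and lower calls in 51.3%.

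The upper end of the zone 4 scores reached far beyond that of the adjacent zones. The highest score was 155.52 in zone 4, against 142.69, 45.16, 14.10, 10.77 and 28.63 for zones 1, 2, 3, 5 and 6. Scores above 20 were found for 132 transcripts in zone 4, against 37, 5, 0, 0 and 3 for zones 1, 2, 3, 5 and 6. Above a score of 50 there were 40 transcripts in zone 4, 3 in zone 1 and 0 in each of the other zones. The transcript ranked 10 in zone 4 scored 91.86, the one ranked 40 scored 50.72 and the one ranked 100 scored 24.52. Among higher calls the median score was 6.22 in zone 4, against 2.74, 3.57, 2.42, 1.87 and 2.16 for zones 1, 2, 3, 5 and 6.

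The lower end showed no such extension. The lowest score was −31.06 in zone 4, against −40.07, −34.58, −35.20, −27.09 and −31.68 for zones 1, 2, 3, 5 and 6. Scores below −20 were found for 17 transcripts in zone 4, against 128, 111, 16, 17 and 64 for zones 1, 2, 3, 5 and 6. The median score of lower calls in zone 4 was −2.79, against −2.49 over the 1460 lower calls (5.94%) of zone 3 and −2.68 over the 1505 (6.12%) of zone 5. A score just past the call was frequent on this side: 381 of the 1231 lower calls lay above −2, while 102 of the 590 higher calls lay under 2.

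**Figure D1:**
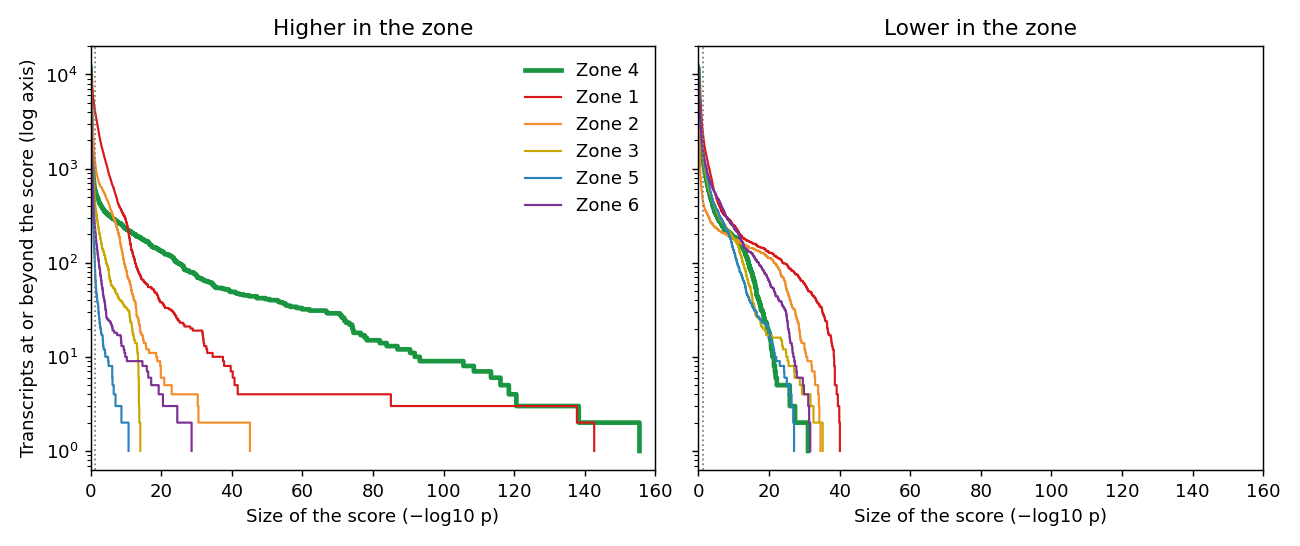
Number of transcripts (vertical, log axis) at or beyond a given size of score (horizontal, −log10 p) for zone 4 (thick line) and the other zones, for positive scores on the left and negative scores on the right; the dotted line marks an exact-test p of 0.05. The zone 4 line reaches 155.52 on the left with 132 transcripts above 20, and ends at a score of −31.06 on the right, within the range of the other zones.

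Most transcripts were not called in zone 4. These 22757 transcripts had a median score of 0 in zone 4, with quartiles of −0.16 and 0.14. A p-value above 0.5 in zone 4 was found for 69.8% of all transcripts, and p-values drawn evenly from 0 to 1 would give about 614 calls in each direction. The 590 higher calls lay below that number and the 1231 lower calls above it. As the p-values are not evenly spread, that number does not measure how many calls arise by chance.

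The transcripts with the most extreme scores have no gene name in the sources used here and are given by identifier. SmedASXL_007088 had the highest score in zone 4, 155.52 (edgeR exact test, Benjamini-Hochberg adjusted p = 7.51e-152), against −32.57, −30.01, −28.72, −25.83 and −23.48 for zones 1, 2, 3, 5 and 6. SmedASXL_005743 followed with 138.32 in zone 4, against −27.10, −26.12, −23.94, −21.45 and −21.88 for zones 1, 2, 3, 5 and 6. Both had a positive score in zone 4 alone, and the scores of the neighbours were negative like those of the distant zones. The lowest score in zone 4 was that of SmedASXL_020150, with −31.06 in zone 4, against 17.27, 7.37, −27.21, −26.38 and −24.33 for zones 1, 2, 3, 5 and 6. SmedASXL_026937 scored −27.37 in zone 4, against 12.52, 10.91, −29.32, −25.04 and −23.62 for zones 1, 2, 3, 5 and 6. For these transcripts the positive scores lay in the head, and zone 4 scored like zones 3, 5 and 6.

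Over the whole lists, zone 3 was centred near 0 for the higher transcripts, and the head zones were opposed to zone 4 for the lower transcripts. Over the 590 transcripts higher in zone 4, the median score was 6.22 in zone 4, against −3.89, −2.13, 0.05, −0.72 and −2.97 for zones 1, 2, 3, 5 and 6. Zone 3 had the widest upward spread of the other zones, with 10% of the list below −4.47 and 10% above 5.43. In zone 5, 10% of the list lay below −5.39 and 10% above 0.11. In 496 of the 590 transcripts (84.1%) zone 4 had the highest of the 6 scores. Over the 1231 transcripts lower in zone 4, the median score was −2.79 in zone 4, against 5.88, 2.65, −2.44, −2.53 and −2.14 for zones 1, 2, 3, 5 and 6. Zone 4 had the lowest of the 6 scores in 576 of these (46.8%). These lists were chosen by their zone 4 scores, and a transcript that is high in zone 4 lowers the scores of the other zones by the construction of the test, so these medians are a description and carry no test.

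**Figure D2:**
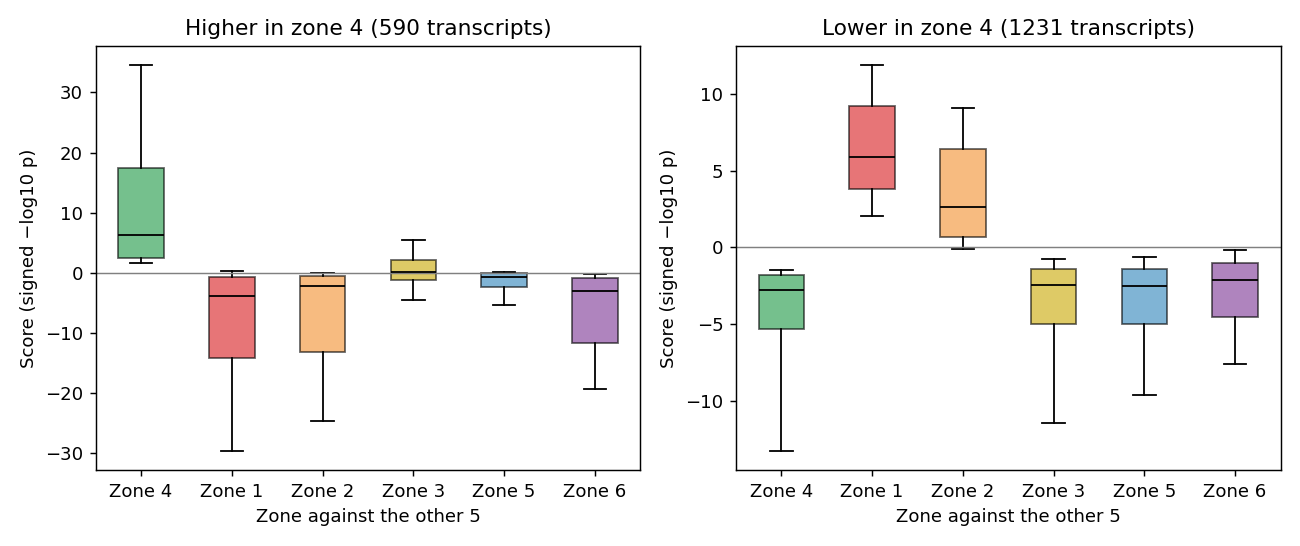
Scores (signed −log10 p, vertical) of the 590 transcripts higher in zone 4 (left) and the 1231 lower in zone 4 (right) in zone 4 and in each other zone; boxes show quartiles, lines the median and whiskers the 10th and 90th percentiles. In the left panel zone 3 is centred at 0.05 and zone 5 at −0.72, nearer to 0 than zones 1, 2 and 6; in the right panel only zones 1 and 2 have positive medians, 5.88 and 2.65.

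Sorted by their zone 4 score, the higher transcripts differed in how the neighbouring zones scored. For the 92 transcripts between 20 and 50 in zone 4 the median was 26.47 in zone 4, against 0.30 in zone 3 and −3.23 in zone 5, while zones 1, 2 and 6 had −12.92, −13.40 and −14.40. For the 40 transcripts above 50 the median was 74.13 in zone 4, against −10.88 in zone 3 and −10.15 in zone 5, and −16.60, −15.84 and −15.39 in zones 1, 2 and 6. No score of these 40 was above −4.49 in zone 3 or above −1.62 in zone 5. In the class below, zone 3 was spread on both sides of 0, from −7.98 to 2.87. The classes were cut on the zone 4 score, and a high zone 4 score lowers the other scores by the construction of the test. These differences between classes are therefore a description and carry no test. On the lower side the classes changed more evenly. The 170 transcripts between −20 and −10 had a median of −14.09 in zone 4, against 10.34, 8.63, −12.07, −9.85 and −7.23 for zones 1, 2, 3, 5 and 6.

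**Figure D3:**
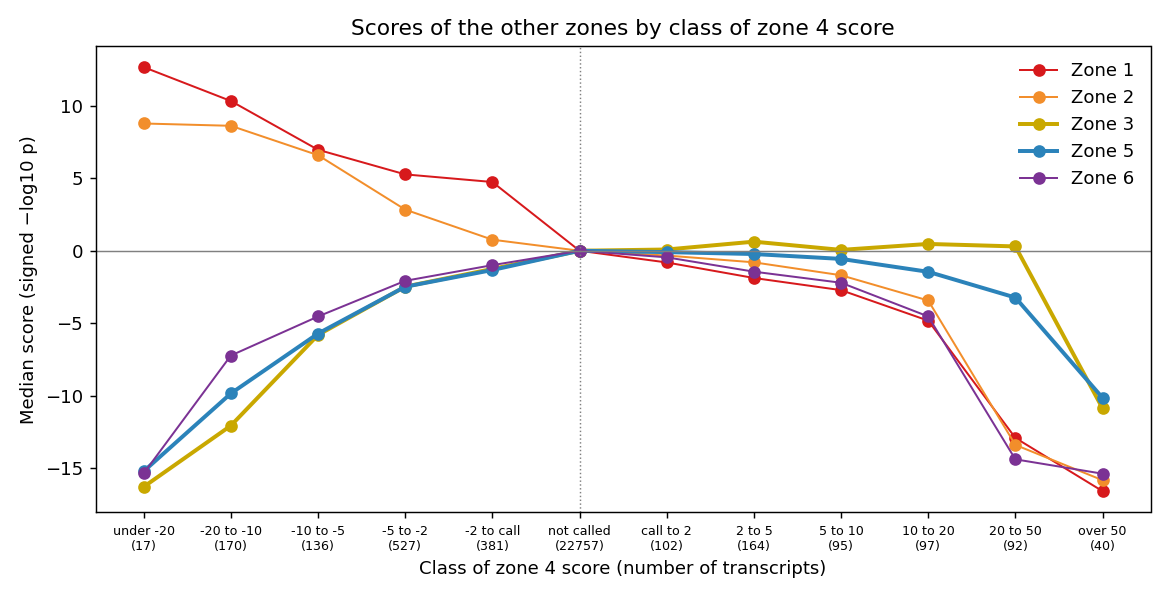
Median score (signed −log10 p, vertical) of zones 1, 2, 3, 5 and 6 for transcripts grouped by their zone 4 score (horizontal, number of transcripts in parentheses; "call" is an exact-test p of 0.05). Zone 3 is near 0 from the uncalled class up to a zone 4 score of 50 and at −10.88 beyond it, while on the lower side it lies at −2.48 to −16.30 for zone 4 scores below −2, and zone 5 is at −10.15 in the last class, against −3.23 in the class before it.

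The zone codes that the authors deposited, which list each zone with a positive score and p under 0.05, divide the 590 transcripts further. The code named zone 4 alone for 367 of them, with a median score of 7.63 in zone 4, against −0.57 in zone 3 and −0.96 in zone 5. Zone 4 followed by zone 3 was the code of 117 transcripts, with medians of 11.90 in zone 4, 2.47 in zone 3 and −0.90 in zone 5. These 117 had strongly negative medians elsewhere, −20.04 in zone 1, −18.52 in zone 2 and −15.42 in zone 6. Zone 3 followed by zone 4 was the code of 81 transcripts, with medians of 2.39 in zone 4, 7.67 in zone 3 and 0 for zone 5. The maximum zone 4 score was 155.52 for the code of zone 4 alone, 29.30 for zone 4 then zone 3 and 7.36 for zone 3 then zone 4. A high zone 4 score lowers the other scores by construction and so works against a further zone in the code. This order is a description.

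Zone 4 was coded with zone 1, 2 or 5 less often than with zone 3. Zones 1 and 4, which do not touch, were named together for 21 transcripts, with a median of 2.33 in zone 4, against 2.48, −0.23, −1.81, −2.65 and −3.73 for zones 1, 2, 3, 5 and 6. Zones 4 and 5 were named together for 2 transcripts, which scored 5.71 and 19.31 in zone 4. Zones 2 and 4 were named together for 2 transcripts, which scored 1.77 and 5.10 in zone 4. The lists of the other zones differ in length, and the codes share their libraries, so these counts describe the deposited codes and do not measure how alike the zones are.

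A score step of more than 5 picked more local peaks than local dips in zone 4. In 293 of the 24578 transcripts the call was higher in zone 4 and the zone 4 score exceeded both neighbouring scores by more than 5. Positive scores in zone 4 reached 155.52 and negative scores only −31.06, so peaks and dips are not on equal terms. The zone 4 library also enters both neighbouring comparisons, which widens a step by construction. Over these 293 transcripts the median was 17.62 in zone 4, against −0.78 in zone 3 and −2.09 in zone 5. Scores that exceeded both neighbours by this step numbered 82 for zone 2, 37 for zone 3 and 4 for zone 5, each against its own neighbours. In 15 transcripts called lower in zone 4 the score was more than 5 below both neighbours, and such steps numbered 2 for zone 2, 3 for zone 3 and 0 for zone 5. These 15 stayed below 0 in the median from zone 3 to the tail: their medians were −17.53 in zone 4, against −11.93 in zone 3, −10.13 in zone 5 and −7.41 in zone 6, with positive medians of 10.86 in zone 1 and 8.51 in zone 2. Over all transcripts and without a threshold, zone 4 alone held the highest of the 6 scores in 2907 and the lowest in 3156, ties left out.

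HOX genes encode homeodomain transcription factors that assign identity along the A–P axis in many animals and are ordered as anterior, central and posterior classes. The homeobox genes with an identifier in the study's sequence table were followed in zone 4, and these are the transcripts that can be named. Of 17 identifiers, 15 had a row, covering 11 HOX genes and En, Eve and Dll-1. Hox1 and a second identifier of Lox4 had none. The posterior HOX gene Post-1 of the study was not among the 17 identifiers and was not followed. All 15 scores in zone 4 were below 0, between −2.07 and −0.01, with a median of −0.59. Of all 24578 transcripts, 47.7% scored below 0 in zone 4, with a median of 0. With p under 0.05 and no adjustment, 0 of the 15 were called higher and 2 were called lower, Post-2d and Post-2a, against 2.40% and 5.01% of all transcripts, and 0 were called after Benjamini-Hochberg adjustment. The list was drawn up by homology, its scores in zone 4 are mostly small, and its share below 0 was not tested.

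The scores of the posterior genes Post-2c and Post-2d and of Hox4b were negative in zones 3 and 4 and positive in zone 5. Post-2d (SmedASXL_012639), a Post-2 paralog, scored −2.07 in zone 4, against −11.09, −10.06, −6.77, 0.88 and 20.51 for zones 1, 2, 3, 5 and 6. The edgeR p-value in zone 4 was 0.00857, and 0.161 after Benjamini-Hochberg adjustment. Post-2c (SmedASXL_007760) scored −1.29 in zone 4, against −5.21 in zone 3 and 2.55 in zone 5, and its zone 4 p-value of 0.0513 lay just outside the call. Hox4b (SmedASXL_008878), assigned to the anterior class, scored −0.16 in zone 4, against −4.02 in zone 3 and 2.23 in zone 5. The study's phylogeny did not resolve Hox4b, which was named by its best sequence matches, so its class is uncertain. For Post-2c, Post-2d and Hox4b, zone 4 lay between a lower zone 3 and a higher zone 5. By in situ hybridization, the study detected Post-2c and Hox4b in the ectoderm of the body opening. A bulk score of the whole piece does not resolve expression in such a part.

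The central gene Lox5a, a paralog of Lox5b, also scored above zone 3 in zone 4, with both of its transcripts. SmedASXL_008764 scored −0.43 in zone 4, against −6.17 in zone 3 and 2.56 in zone 5. SmedASXL_066865 scored −0.01 in zone 4, against −1.47 in zone 3 and 0 in zone 5, so its scores in zones 4 and 5 hardly differed. Lox5b (SmedASXL_002885) also lay between zones 3 and 5 with small values, −0.37 in zone 4, against −0.61 in zone 3 and 0.11 in zone 5. Lox4 (SmedASXL_005553) scored −0.59 in zone 4, against −1.98 in zone 3 and −0.09 in zone 5. The exact-test p-values of these 4 Lox transcripts in zone 4 lay between 0.258 and 0.969. In all, 8 of the 15 transcripts scored between zone 3 and zone 5 in zone 4, against 29.0% of all transcripts. Both Lox5a transcripts are among the 8, several of the differences were small, and the share was not tested.

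For other genes zone 4 was below both neighbours. Post-2a (SmedASXL_008903) scored −1.80 in zone 4, against 1.21, −0.58, −1.16, −0.07 and 2.28 for zones 1, 2, 3, 5 and 6. Its edgeR p-value in zone 4 was 0.0159, and 0.271 after Benjamini-Hochberg adjustment. Its paralog Post-2b (SmedASXL_008593) scored −0.62 in zone 4, against −0.52 in zone 3 and 0.19 in zone 5. Both paralogs had their highest score in zone 6, 2.28 for Post-2a and 1.60 for Post-2b, and their lowest in zone 4. Hox3b (SmedASXL_007522), whose highest score was in zone 2, had −1.004 in zone 4, against 0.14 in zone 3 and −0.16 in zone 5. Neither was called in zone 4, where the exact-test p-value was 0.24 for Post-2b and 0.099 for Hox3b.

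The homeobox genes outside the HOX class also scored below both neighbours in zone 4, by small margins that were not tested. Eve (SmedASXL_008181), the homolog of the Drosophila segmentation gene even-skipped, scored −1.18 in zone 4, against −0.77 in zone 3 and −0.29 in zone 5, with an exact-test p-value of 0.0661. En (SmedASXL_019490), the homolog of engrailed, another Drosophila segmentation gene, scored −0.91 in zone 4, against −0.79 in zone 3 and −0.23 in zone 5. Dll-1 (SmedASXL_012281), a homolog of the Drosophila appendage gene Distal-less, scored −0.14 in zone 4, against −0.12 in zone 3 and −0.07 in zone 5. Hox4a (SmedASXL_007160) scored −0.19 in zone 4, against −0.23 in zone 3 and 0.15 in zone 5. Hox2/3a (SmedASXL_008435) scored −0.07 in both zone 4 and zone 5, against −0.01 in zone 3. Eve, En, Dll-1, Hox4a and Hox2/3a were not called in zone 4, which does not show that they are evenly expressed.

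**Figure D4:**
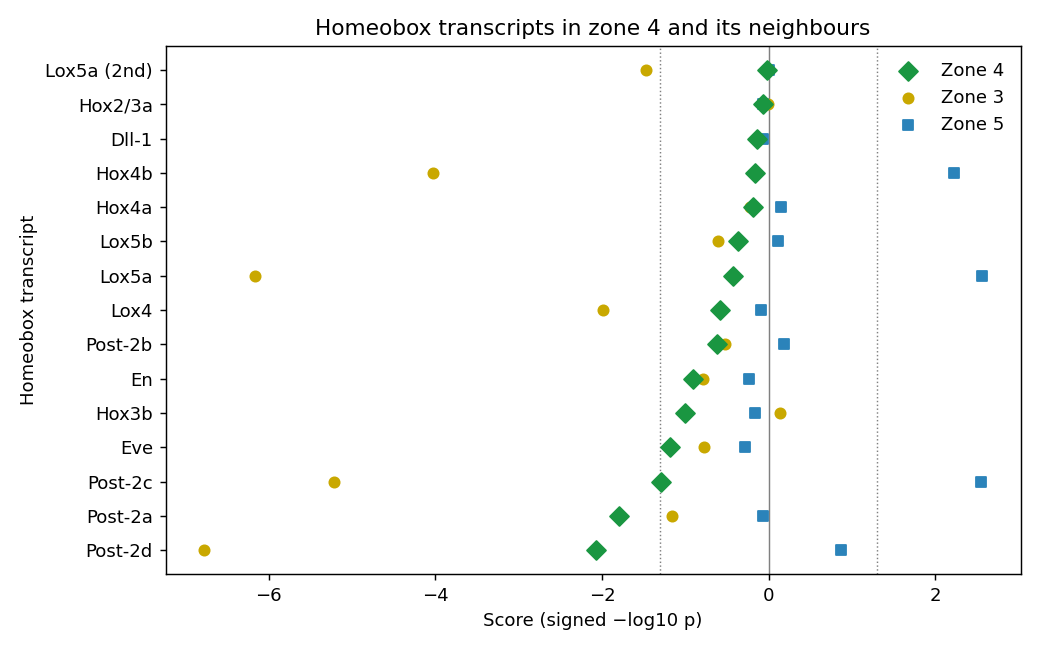
Scores (signed −log10 p, horizontal) of the 15 homeobox transcripts in zone 4 (diamonds), zone 3 (circles) and zone 5 (squares), ordered by the zone 4 score; dotted lines mark an exact-test p of 0.05. All zone 4 scores lie between −2.07 and −0.01, and Post-2d, Post-2c, Hox4b and the first Lox5a transcript lie between a negative zone 3 and a positive zone 5.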

How the data were processed

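The members and lists were chosen with earlier results of these data known. According to the labels and the study's methods, the authors demultiplexed reads with bcl2fastq 1.8.3, aligned them untrimmed with Bowtie2 2.2.4 to the asexual transcriptome, filtered out transcripts of low CPM, applied TMM normalization and ran the edgeR exact test for a zone against the average of the rest. The authors' deposited score is a signed −log10 p-value, and a zone code set by the authors accompanies it. Counts, CPM and fold changes were not analysed here, so the depth behind a score was not examined.

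P-values were recovered by undoing the logarithm of each score and were adjusted by the Benjamini-Hochberg method. A transcript was called higher in a zone at a positive score and an unadjusted p under 0.05, the authors' rule. Lower calls mirror that rule with a negative score and were added here, as the study lists only higher transcripts. The deposited zone codes, computed again from the scores, were equal in all 24578 rows. Local peaks used a score step of 5. Named transcripts were the homeobox genes with an identifier in the study's sequence table and the 2 highest and 2 lowest in zone 4. Recovery of p-values, adjustment, calling and coding were tested on simulated scores. Those scores were drawn independently for each zone, whereas the real scores share libraries. The local peaks and the list medians were not part of that test. The libraries stand unreplicated, and no test over samples was possible. Python 3.11.15, numpy 2.4.6, pandas 2.3.3, scipy 1.17.1 and matplotlib 3.10.9 were used.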

Additional observations from a re-analysis of the deposited data

How the results depend on the processing

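The number of transcripts higher in zone 4 lay between 423 and 488 under the stricter calls, within 1.5 times the 590 reported. The number lower in zone 4 was 1231 and became 631 with Benjamini-Hochberg adjustment within the comparison, 660 with adjustment over all 6 comparisons and 814 with a Bonferroni correction for the reading of 6 zones; it was 850 at p under 0.01. Of the homeobox list, 2 genes were called at p under 0.05, 1 at p under 0.01 (Post-2d), and 0 under the Benjamini-Hochberg adjustments, 0 over all 6 comparisons and 0 with Bonferroni adjustment. Zone 4 had the highest score in 705 and the lowest in 1081 transcripts when transcripts without a call in any zone were left out, by construction fewer. The median zone 3 score of the transcripts higher in zone 4 was −0.04 after Benjamini-Hochberg adjustment, and −4.76 for the 100 highest. The median zone 5 score was −1.33 after the same adjustment and −5.35 for the 100 highest. No paired analysis was possible because each zone has 1 library, and no replicate could be left out.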
